A study of Homo sapiens with 2 samples.

Results

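Kinesin and dynein motors were read from arrays of 293T cells, an established human embryonic kidney line, exposed to 10 µM Y27632 for 6 h or for 3 h and hybridised against untreated 293T cells. The members are all genes whose current symbol starts with KIF and a number, KLC, DYNC, DYNLL, DYNLRB, DYNLT, or DNAH or DNAI and a number, and that had a value on at least 1 array. They number 48 of the 11057 named genes with a value, and 45 of them had a value on both arrays. Y27632 inhibits the ROCK kinases, which drive actomyosin contraction. Cells in the untreated channel received no agent and were given a time of 0 h. The titles of both arrays name a control and a time but no agent, and the treatment is taken from the labels of the Cy3 channel. Each time had 1 array without a dye swap, with treated cells in Cy3 and untreated cells in Cy5 on both. All groups were grown in the same medium with 10% fetal bovine serum, and the labels name no vehicle. Whether a single untreated RNA served both arrays is not stated.

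Kinesins are motors that burn ATP to move along microtubules, most of them towards the plus end. Some carry vesicles and organelles, some build and pull apart the mitotic spindle, and some take microtubule ends apart. Cytoplasmic dynein walks towards the minus end with its cofactor dynactin, while axonemal dyneins power the beating of motile cilia and sperm tails. In a dividing epithelial line without motile cilia, the spindle motors are cell cycle genes, and the axonemal dyneins are genes of another cell type.

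Every value is a deposited log ratio of the channels, averaged over the probes of a gene and read in base 2. The numerator of the ratio is not given in the sources used here, so positive and negative are signs of the deposited value and say nothing of higher or lower expression in treated cells. Turning the sign would exchange them throughout. A ratio gives no expression level, so the labelled cell type could not be checked against its markers. With 1 array per time there is no replicate error, and no p-value is given. The spread between probes of the same gene, over 572 genes with several probes, was an SD of 0.33 at 6 h, 0.31 at 3 h and 0.30 for the difference of the arrays. It compares different probes on the same arrays and holds no variation between repeat arrays or cultures, so it is only a rough guide for a single gene. Of the 48 members, 46 had 1 probe. Without spot intensities, the precision is limited by the number of arrays. The median named gene lay at 0.02 on each array and the SD across genes was 0.36 on each.

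As a family the motors had medians above 0 on both arrays. The median was 0.23 at 6 h and 0.11 at 3 h. Values above 0 were found for 29 of 45 members at 6 h, where 51.5% of all named genes were above 0, and for 29 of 48 at 3 h, where 51.3% were. The ranges of the role groups overlapped on both arrays. The median of the mitotic kinesins was 0.43 at 6 h and 0.20 at 3 h, and that of cytoplasmic dynein was 0.18 at 6 h and 0.32 at 3 h. Transport kinesins had 0.17 at 6 h and 0.02 at 3 h. Axonemal dyneins had −0.05 at 6 h and −0.32 at 3 h, and their 6 h median was −0.23 when restricted to genes with 1 probe, which leaves out DNAH14. The small group of other kinesins had −0.14 at 6 h and 0.27 at 3 h, and the kinesin light chains had 0.18 at 6 h and 0.24 at 3 h.

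**Figure D1:**
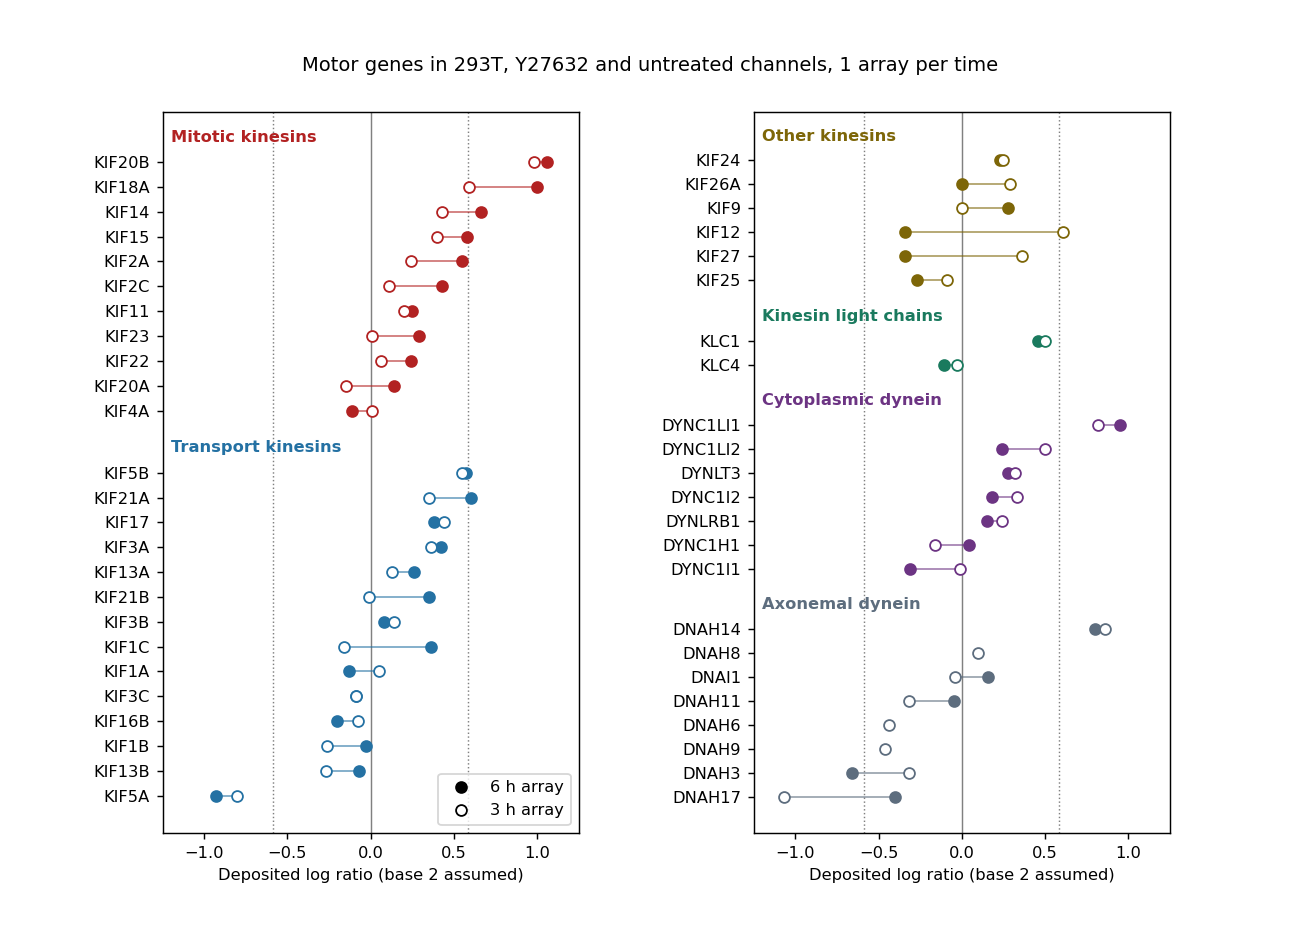
Deposited log ratio of each of the 48 members, by role, with filled points for the 6 h array and open points for the 3 h array. Solid vertical lines mark 0 and dotted lines a 1.5-fold size. KIF20B, KIF18A, DYNC1LI1 and DNAH14 lie past the right dotted line on both arrays and KIF5A past the left one.

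A 1.5-fold size, 0.58 log2 units from 0, was used to count members. At 6 h, 6 of 45 members were past it on the positive side, where 5.63% of 10716 named genes were, and 2 were past it on the negative side, where 4.24% were. The positive members were KIF14, KIF18A, KIF20B, KIF21A, DYNC1LI1 and DNAH14. The negative members were KIF5A and DNAH3. At 3 h, 5 of 48 members were past it on the positive side against 4.88% of 10810 genes, and 2 on the negative side against 4.49%. The positive members were KIF12, KIF18A, KIF20B, DYNC1LI1 and DNAH14, and the negative ones were KIF5A and DNAH17. Over both signs, 8 of 45 members were past the size at 6 h against 9.86% of all genes, and 7 of 48 at 3 h against 9.36%. At 2-fold the counts came down to KIF18A and KIF20B at 6 h, with 0.700% of all genes on that side, and to DNAH17 at 3 h, with 0.953% of all genes on its side.

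Mitotic kinesins had the highest median of the 6 role groups at 6 h, though not at 3 h. This group held 11 measured genes, and 10 of them were above 0 at 6 h and 10 at 3 h, against 51.5% and 51.3% of all named genes. With each array centred on its named genes, 10 were above 0 at 6 h and 8 at 3 h, since KIF23 and KIF4A lay at 0.01 at 3 h. KIF20B (probe H200000065), a kinesin of cytokinesis also known as MPHOSPH1, had 1.06 at 6 h and 0.98 at 3 h. These are 2.08-fold and 1.97-fold sizes, at rank 56 of 10716 and rank 73 of 10810 from the positive end. KIF18A (probe H200009956), which damps chromosome movements at the metaphase plate, had 1 at 6 h and 0.59 at 3 h. KIF14, which works with citron kinase at the midbody, had 0.66 at 6 h and 0.43 at 3 h. KIF15, which can keep spindle poles apart alongside KIF11, had 0.58 at 6 h and 0.40 at 3 h. Its 6 h value was a 1.49-fold size, just short of the threshold.

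The remaining mitotic motors were closer to 0. KIF2A and KIF2C belong to the kinesins that shorten microtubules from their ends. KIF2A had 0.55 at 6 h and 0.24 at 3 h, and KIF2C had 0.43 at 6 h and 0.11 at 3 h. KIF11, the tetrameric motor that slides spindle microtubules apart, had 0.25 at 6 h and 0.20 at 3 h. KIF23, the motor subunit of centralspindlin, had 0.29 at 6 h and 0.01 at 3 h. KIF22, a chromosome-arm motor, had 0.24 at 6 h and 0.06 at 3 h. KIF20A, which brings the chromosomal passenger complex to the midzone, had 0.14 at 6 h and −0.15 at 3 h. KIF4A, which limits microtubule growth at the central spindle together with PRC1, had −0.11 at 6 h and 0.01 at 3 h. KIF4A has a close copy, KIF4B, from which a probe may not separate it. The group thus ran from −0.11 for KIF4A to 1.06 for KIF20B at 6 h. In bulk RNA, a different share of cells in mitosis and a different amount of transcript per cell cannot be told apart.

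The ratio at 6 h exceeded the ratio at 3 h for 10 of 11 mitotic kinesins, while 46.9% of 10469 named genes had a difference above 0. The median difference, 6 h minus 3 h, was 0.23 for these kinesins and −0.01 for all named genes. KIF18A had the largest, 0.41, and then came KIF2C with 0.32, KIF2A with 0.31, KIF20A with 0.29 and KIF23 with 0.28. KIF4A had −0.12. A single difference of this size lies near the probe SD of 0.30, and no mitotic kinesin differed by 1.5-fold between the arrays, while 3.05% of all genes did on the positive side. A dye effect equal on both arrays, or an untreated RNA shared by both, would cancel in this difference, but neither was tested. Array and time cannot be told apart in it.

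**Figure D2:**
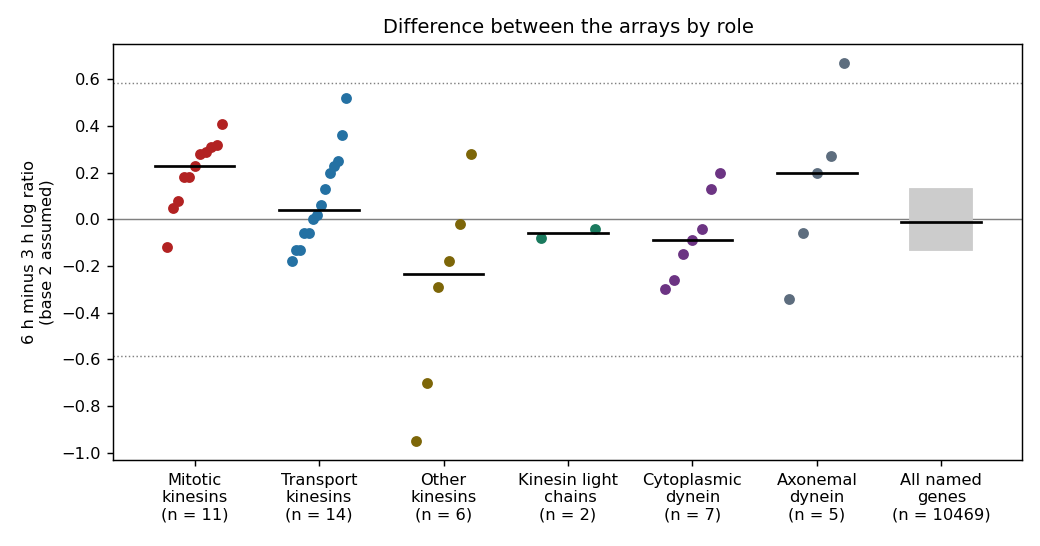
Difference of the log ratios, 6 h minus 3 h, for each member with both values, by role, with the median as a horizontal bar and the middle 50% of all named genes as a grey box. Dotted lines mark 1.5-fold. The mitotic kinesins centre on 0.23, against −0.01 for all named genes, and KIF12 and KIF27 are the low points among other kinesins.

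Partner genes of the mitotic kinesins, from a list made for comparison, were also measured. They include spindle factors, chromosomal passengers, kinetochore genes and mitotic kinases, and 24 of 27 had values. Their median was 0.18 at 6 h and 0.11 at 3 h. Of these genes, 17 were above 0 at 6 h and 15 at 3 h, against 51.5% and 51.3% of all named genes. The difference between the arrays was positive for 21 of 24, against 46.9% of all named genes, with a median of 0.15. NUF2, a kinetochore subunit, had 1.33 at 6 h and 1.12 at 3 h, and CDC25C, a phosphatase that activates CDK1, had 1.31 at 6 h and 0.69 at 3 h. The lowest were PLK1, a mitotic kinase, with −0.29 at 6 h and −0.11 at 3 h, and AURKB, the kinase of the chromosomal passenger complex, with −0.15 at 6 h and −0.17 at 3 h. Genes that act directly with a named kinesin did not all follow its value. RACGAP1, the partner of KIF23 in centralspindlin, had 0.77 at 6 h and 0.61 at 3 h, well above KIF23. PRC1, the partner of KIF4A, had 0.39 at 6 h and 0.19 at 3 h, and TPX2, which binds KIF11, had 0.09 at 6 h and 0.01 at 3 h. These partner genes were chosen after their values were seen.

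Promoter sequences of the mitotic kinesins are shown because cell cycle genes are known to share short elements near their start sites, a CCAAT box bound by NF-Y and the cell cycle homology region bound by the DREAM and MuvB complexes. RefSeq windows of 250 bases before to 50 bases after the start site (build GRCh38.p14) were found for 41 of 48 members and for all 11 mitotic kinesins. Short words were searched on both strands, TTTGAA for the homology region, CCAAT for the NF-Y box and GTTGCC for part of the site of the RFX factors of ciliary genes. TTTGAA and CCAAT can share no more than an end letter. TTTGAA was in the windows of 8 of 41 members, which were 7 of the 11 mitotic kinesins and the transport kinesin KIF5B. Of all 35116 windows, 15.2% held it, and of 8872 measured genes 14.9% held it in any window. CCAAT was in 8 of the 11 mitotic kinesins, with 34.6% of all windows and 43.4% of measured genes holding it, and also in 4 of 6 axonemal dyneins with a window. Both words were in 6 of the 11, against 5.90% of all windows and 6.44% of measured genes. GTTGCC was in 13 of 41 members, against 12.2% of all windows and 16% of measured genes. They were 3 of 11 mitotic, 4 of 11 transport and 2 of 5 other kinesins, 2 of 7 cytoplasmic dyneins and 2 of 6 axonemal dyneins. A match of so short a word is a description of these letters and no evidence of binding. The stretches below are the 150 bases that end just before the start site, with TTTGAA and CCAAT in capitals on either strand (as TTCAAA and ATTGG on the opposite one). They are given for 7 mitotic kinesins from the high end of the 6 h values to the low end, and for the dynein chain DYNC1LI1. Each is written in the direction of its gene. The printed genes do not stand for their groups. All 7 kinesins hold a word, while KIF2A and KIF2C, which hold neither, are not printed. DYNC1LI1 holds neither, but 2 of 7 cytoplasmic dyneins hold CCAAT.
KIF20B, chr10:89701440-89701589, plus strand: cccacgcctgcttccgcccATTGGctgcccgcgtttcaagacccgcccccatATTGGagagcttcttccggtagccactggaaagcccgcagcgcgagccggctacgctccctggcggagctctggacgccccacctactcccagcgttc
KIF18A, chr11:28108157-28108306, minus strand: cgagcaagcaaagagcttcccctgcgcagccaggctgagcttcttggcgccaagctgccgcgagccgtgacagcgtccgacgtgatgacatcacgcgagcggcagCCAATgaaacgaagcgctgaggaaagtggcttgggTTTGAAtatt
KIF15, chr3:44761644-44761793, plus strand: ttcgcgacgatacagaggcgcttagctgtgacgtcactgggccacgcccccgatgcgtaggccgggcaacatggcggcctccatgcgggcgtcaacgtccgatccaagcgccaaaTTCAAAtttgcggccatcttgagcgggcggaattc
KIF23, chr15:69414199-69414348, plus strand: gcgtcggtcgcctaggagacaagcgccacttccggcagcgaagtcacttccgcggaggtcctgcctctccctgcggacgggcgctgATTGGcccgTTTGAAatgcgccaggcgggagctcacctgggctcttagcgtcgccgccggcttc
KIF11, chr10:92592980-92593129, plus strand: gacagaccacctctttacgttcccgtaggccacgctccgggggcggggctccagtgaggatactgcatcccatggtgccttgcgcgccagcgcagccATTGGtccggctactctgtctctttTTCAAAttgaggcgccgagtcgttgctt
KIF20A, chr5:138178962-138179111, plus strand: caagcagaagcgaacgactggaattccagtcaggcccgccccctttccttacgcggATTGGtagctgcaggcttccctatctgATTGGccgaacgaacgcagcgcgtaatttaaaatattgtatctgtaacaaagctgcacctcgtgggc
KIF4A, chrX:70289954-70290103, plus strand: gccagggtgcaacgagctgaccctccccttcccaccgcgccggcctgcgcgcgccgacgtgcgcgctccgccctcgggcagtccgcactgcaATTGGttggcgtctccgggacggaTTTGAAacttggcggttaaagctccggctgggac
DYNC1LI1, chr3:32570859-32571008, minus strand: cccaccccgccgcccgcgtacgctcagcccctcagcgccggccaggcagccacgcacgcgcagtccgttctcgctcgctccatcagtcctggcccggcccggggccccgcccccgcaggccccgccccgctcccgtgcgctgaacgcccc

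In KIF18A, KIF11, KIF23 and KIF4A a CCAAT word precedes a TTTGAA word close to the start site. KIF11 carries both on the opposite strand, with CCAAT from base −53 and TTTGAA from base −28, counted from the start site. KIF18A carries both on the gene's own strand, from bases −45 and −10. KIF15 has the TTTGAA word without CCAAT, and KIF20A has CCAAT at both −94 and −67 and no TTTGAA. In KIF20B the upstream part holds CCAAT words, and its TTTGAA words begin 25 and 31 bases into the transcript. KIF14, not printed above, has CCAAT from base −22 on its own strand and TTTGAA from base 2 of the transcript on the opposite strand. Neither word was found in the windows of KIF2A and KIF2C, or in that of DYNC1LI1. Whether the words go with the values was not tested. Both words were in KIF20B, KIF18A and KIF14, the highest mitotic kinesins at 6 h, and in KIF23 and KIF11. KIF4A, also with both, was the lowest mitotic kinesin at 6 h, and KIF2A, with neither, was at 0.55.

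**Figure D3:**
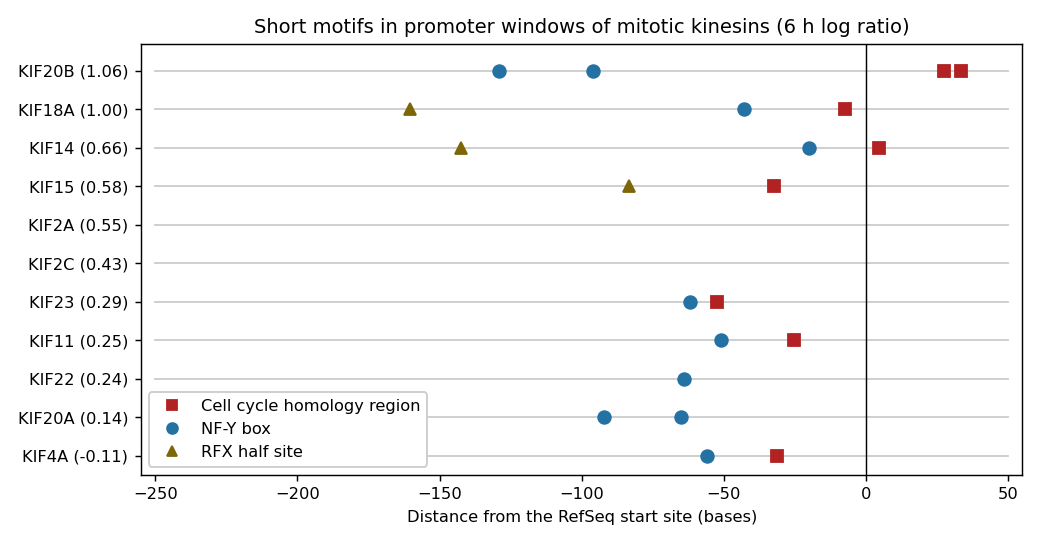
Positions of the 3 short motifs in the promoter windows of the 11 mitotic kinesins, in bases from the RefSeq start site, with genes ordered by their 6 h log ratio in brackets. Squares (cell cycle homology region) lie within 60 bases of the start site in all 7 genes that hold one.

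Transport kinesins were spread on both sides of 0. Of 14 measured genes, 8 were above 0 at 6 h and 7 at 3 h, close to the shares of all named genes. The kinesin-1 heavy chains, which pull mitochondria and vesicles, lay far apart. KIF5B (probe H200013666), the heavy chain made in most tissues, had 0.57 at 6 h and 0.55 at 3 h. KIF5A (probe H200014518), the chain known from neurons, had −0.93 at 6 h and −0.80 at 3 h. That is a 1.91-fold size at 6 h and a 1.74-fold size at 3 h, at rank 109 of 10716 and rank 219 of 10810 from the negative end. KIF5C, the remaining heavy chain, is not analysed here. The light chains, which link the heavy chains to cargo, gave KLC1 with 0.46 at 6 h and 0.50 at 3 h, and KLC4 with −0.11 at 6 h and −0.03 at 3 h.

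Neuron markers were read beside KIF5A. Of 14 listed genes 11 had values, from −0.88 to 0.55 at 6 h and from −1.22 to 0.75 at 3 h, and the median was −0.05 at 6 h and −0.18 at 3 h. The highest by the mean of both arrays were the synaptic vesicle gene SYT1, with 0.32 at 6 h and 0.68 at 3 h, and STMN2, with 0.10 at 6 h and 0.75 at 3 h. At the low end the neurofilament gene NEFL had −0.69 at 6 h and −0.73 at 3 h, and the RNA-binding protein gene ELAVL3 had −0.88 at 6 h and −1.22 at 3 h. The levels of these genes in 293T cells are not known from ratios, and their part in the value of KIF5A was not tested.

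The kinesins of the KIF21 pair, which restrain microtubule growth, had positive 6 h values. KIF21A had 0.60 at 6 h and 0.35 at 3 h, and KIF21B had 0.35 at 6 h and −0.01 at 3 h. Kinesin-2 motors carry intraflagellar transport trains and other cargo. Among them KIF3A had 0.42 at 6 h and 0.36 at 3 h, and KIF17 had 0.38 at 6 h and 0.44 at 3 h. The partners of KIF3A were nearer 0, with KIF3B at 0.08 and KIF3C at −0.09 at 6 h, and KIF3B at 0.14 and KIF3C at −0.09 at 3 h. The kinesin-3 family carries vesicles and endosomes, and its members lay on both sides of 0. KIF1A, carrier of synaptic vesicle precursors, had −0.13 at 6 h and 0.05 at 3 h, and KIF1B had −0.03 at 6 h and −0.26 at 3 h. KIF13B had −0.07 at 6 h and −0.27 at 3 h, and KIF13A had 0.26 at 6 h and 0.13 at 3 h. KIF16B, an endosome motor, had −0.21 at 6 h and −0.08 at 3 h as the mean of its probes. Its probes gave −0.22 and −0.19 at 6 h, and 0.06 and −0.21 at 3 h. KIF1C had 0.36 at 6 h and −0.16 at 3 h, and its difference of 0.52 was the largest among the transport kinesins.

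The other kinesins are a mixed group of 6 measured genes, several with a role in cilia. Their medians were −0.14 at 6 h and 0.27 at 3 h, and 5 of 6 had a negative difference between the arrays, where 51.2% of all named genes had one. KIF12 (probe H200003818), a kinesin of kidney and liver epithelium, had −0.34 at 6 h and 0.61 at 3 h. Its difference of −0.95 was at rank 58 of 10469 from the negative end. KIF27, which takes part in building motile cilia in mice, had −0.34 at 6 h and 0.36 at 3 h, and its difference was −0.70. KIF26A, an atypical kinesin, had 0.00 at 6 h and 0.29 at 3 h, and KIF25 had −0.27 at 6 h and −0.09 at 3 h. KIF24, which shortens centriolar microtubules and holds back cilium growth, had 0.23 at 6 h and 0.25 at 3 h. KIF9 stood on the other side with 0.28 at 6 h and 0.00 at 3 h. Over the whole family, 3 of 45 members differed by 1.5-fold between the arrays, as did 5.75% of all named genes. They were KIF12 and KIF27 on the negative side against 2.70% of all genes, and DNAH17 on the positive side.

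Cytoplasmic dynein was represented by 7 measured subunits, of which 6 were above 0 at 6 h and 5 at 3 h, against 51.5% and 51.3% of all named genes. DYNC1LI1 (probe H200016571), a light intermediate chain that links dynein to its cargo adaptors, had 0.95 at 6 h and 0.82 at 3 h. These are 1.93-fold and 1.77-fold sizes, at rank 92 of 10716 and rank 162 of 10810 from the positive end. DYNC1LI2, the other light intermediate chain, had 0.24 at 6 h and 0.50 at 3 h. DYNC1H1, the heavy chain that holds the motor, was near 0, with 0.04 at 6 h and −0.16 at 3 h. The intermediate chains, which form the scaffold for the light chains, were DYNC1I2 with 0.18 at 6 h and 0.33 at 3 h, and DYNC1I1 with −0.31 at 6 h and −0.01 at 3 h. DYNC1I1 is known mainly from neurons. The light chain DYNLRB1 had 0.15 at 6 h and 0.24 at 3 h, and DYNLT3 had 0.28 at 6 h and 0.32 at 3 h. The 7 measured subunits, which need not all share one complex, thus had 6 h ratios from −0.31 for DYNC1I1 to 0.95 for DYNC1LI1.

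The difference between the arrays was negative for 5 of 7 dynein subunits, as it was for 51.2% of all named genes, and had a median of −0.09. It ran from −0.30 for DYNC1I1 to 0.20 for DYNC1H1, sizes no greater than about the probe SD of 0.30. Dynactin and the adaptors of dynein, with 10 of 22 listed genes measured, lay at a median of 0.14 at 6 h and 0.22 at 3 h. Of these 10 genes, 8 were above 0 at 6 h and 9 at 3 h, against 51.5% and 51.3% of all named genes. NDEL1, a dynein regulator that works with LIS1, had 0.62 at 6 h and 0.57 at 3 h. DCTN4, a dynactin subunit, had 0.54 at 6 h and 0.32 at 3 h. RAB11FIP3, an adaptor for recycling endosomes, had −0.26 at 6 h and −0.24 at 3 h, and NDE1, a relative of NDEL1, had 0.03 at 6 h and 0.01 at 3 h.

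**Figure D4:**
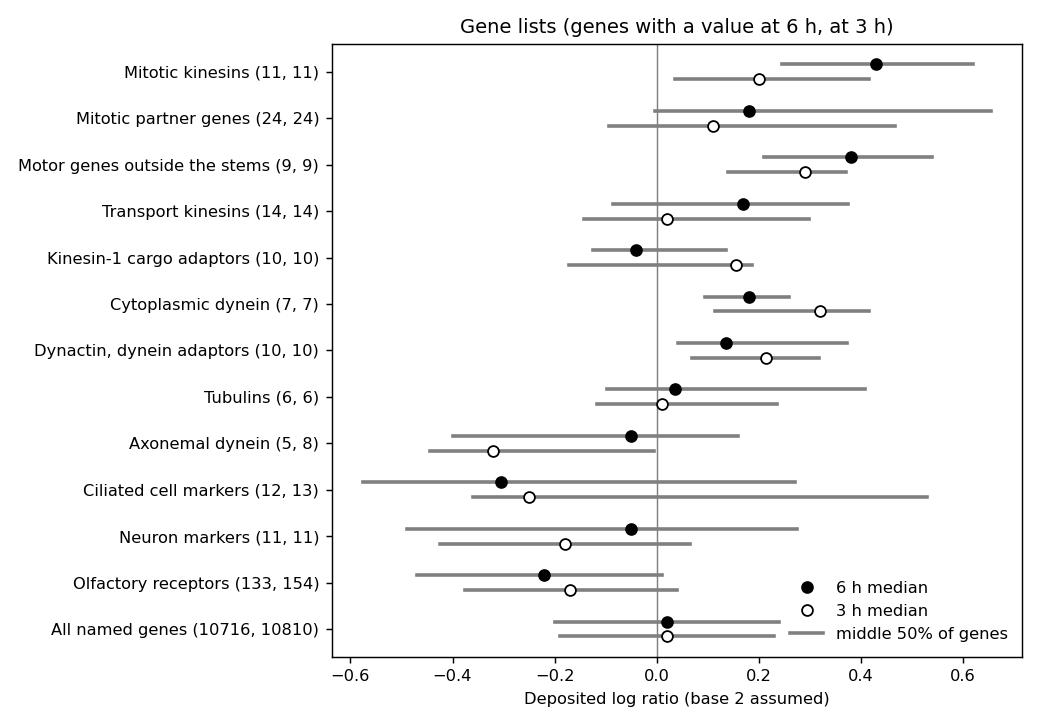
Median log ratio of the motor groups and of comparison lists, with filled points at 6 h and open points at 3 h, grey bars for the middle 50% of genes, and the number of genes with a value at 6 h and at 3 h in brackets. At 6 h, mitotic kinesins (0.43) are at the right and ciliated cell markers and olfactory receptors on the left. At 3 h, cytoplasmic dynein (0.32) is at the right and axonemal dynein (−0.32) on the left. All named genes have a median of 0.02 on each array.

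Axonemal dyneins were mostly deposited without a value. The arrays held 19 probes for 16 genes of this group. At 6 h, 13 of the 19 (68.4%) had no value and at 3 h 10 (52.6%), against 16.2% at 6 h and 15.5% at 3 h for all 24267 probes. All probes of the mitotic and transport kinesins had values on both arrays. Olfactory receptor genes, which belong to another cell type, lacked a value for 51.6% of 275 probes at 6 h and 44.0% at 3 h. The reason for a missing value is not given in the sources used here. The genes without any value were DNAH1, DNAH2, DNAH5, DNAH7, DNAH10, DNAH12, DNAI2 and DNAI7. Outside the axonemal group they were KIF6, a kinesin of ependymal cilia in mice, and DYNLRB2, a dynein light chain.

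**Figure D5:**
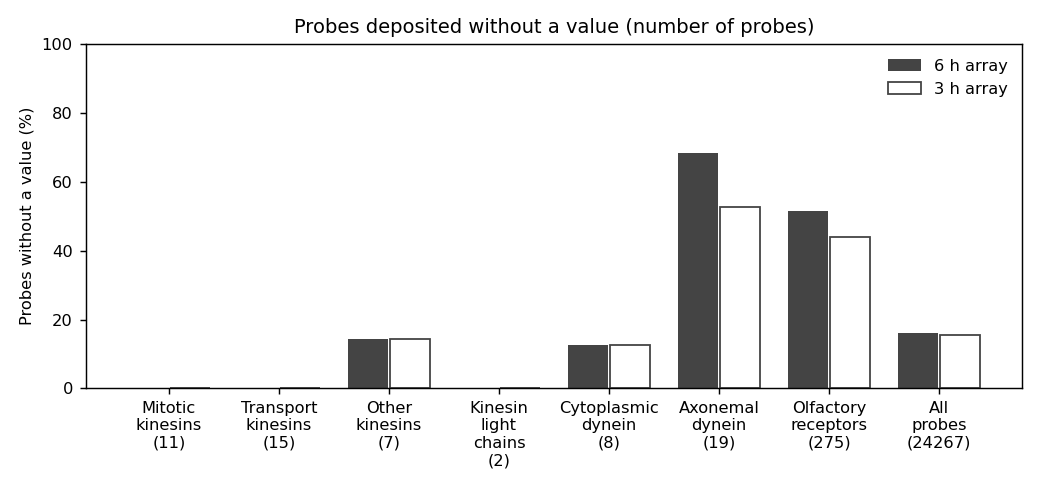
Share of probes deposited without a value, by motor group, for olfactory receptors and for all probes, with the number of probes in brackets. Axonemal dyneins reach 68.4% at 6 h and 52.6% at 3 h, and mitotic kinesins, transport kinesins and light chains have none missing.

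Of the axonemal dyneins with values, 3 of 5 were below 0 at 6 h, against 47.3% of all named genes, and 6 of 8 at 3 h, where 47.5% of all named genes were. The dynein light chain genes DNAL1 and DNAL4 fall outside the stems and were above 0. DNAL1 had 0.38 at 6 h and 0.47 at 3 h, and DNAL4 had 0.41 at 6 h and 0.14 at 3 h. Both were chosen after their values were seen. DNAH17 (probe opHsV0400001462), a heavy chain of the outer arm in sperm tails, had −0.40 at 6 h and −1.07 at 3 h, a 2.10-fold size at 3 h. Its difference of 0.67 between the arrays was the largest positive one in the family. DNAH3, an inner arm chain, had −0.66 at 6 h and −0.32 at 3 h, and DNAH11, an outer arm chain, had −0.05 at 6 h and −0.32 at 3 h. DNAI1, an intermediate chain of the outer arm, had 0.16 at 6 h and −0.04 at 3 h. DNAH6, DNAH8 and DNAH9 had a value at 3 h alone, of −0.44, 0.10 and −0.46. DNAH14, a little studied heavy chain, was the highest of the group on both arrays, with 0.80 at 6 h and 0.86 at 3 h. Its probes opHsV0400003211 and opHsV0400003915 gave 1.02 and 0.58 at 6 h, and 1.17 and 0.55 at 3 h, and a further probe had no value.

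Markers of ciliated cells were read beside the axonemal group. Of 26 listed genes 13 had values, with medians of −0.31 at 6 h and −0.25 at 3 h. On the 6 h array 7 of 12 markers lay below 0, where 47.3% of all named genes lay. On the 3 h array 9 of 13 markers did, while the share of all named genes was 47.5%. The range of the markers was −0.99 to 0.83 at 6 h and −0.89 to 0.94 at 3 h. The highest by the mean of both arrays were SPAG16, an axoneme gene, with 0.79 at 6 h and 0.94 at 3 h, and DNAAF2, which helps to assemble axonemal dyneins, with 0.83 at 6 h and 0.63 at 3 h. The lowest were the transcription factor RFX3, with −0.87 at 6 h and −0.89 at 3 h, and RSPH1, a radial spoke gene, with −0.99 at 6 h and −0.69 at 3 h. FOXJ1, the transcription factor that sets up motile cilia, had −0.71 at 6 h and −0.25 at 3 h. DNAAF4, from the same list, had 0.69 at 6 h and 0.54 at 3 h. The olfactory receptor median was −0.22 over 133 genes at 6 h and −0.17 over 154 genes at 3 h. The part of either in the axonemal values was not tested. FOXJ1 and DNAAF4 were chosen after their values were seen.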

How the data were processed

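The data are the log ratios of 2 dual-colour arrays as deposited by the authors, with no log base stated, and were read as log2 because base 10 would make 1 SD of all probes a 2.45-fold difference at 6 h and 2.39-fold at 3 h, against 1.31-fold and 1.30-fold in base 2. Natural logarithms remain possible. The sources used here do not give the steps by which the authors made these ratios. RNA was extracted with ISOGEN, amplified by an amino allyl procedure and dye-coupled, per the labels' protocols. The median over probes was 0 on each array as deposited. The platform annotation named 13395 of 24267 probes, each with 1 symbol, and left 10872 unnamed. In RefSeq (GRCh38.p14) 10822 of these symbols were current, 2446 matched a unique synonym and were replaced, and 127 stayed as listed. Among the members, 13 had an updated symbol (MPHOSPH1 for KIF20B, KNSL7 for KIF15). A gene was the mean of its probes. Members were counted at 1.5-fold and at 2-fold, beside all named genes. No test was possible with 1 array per time. Role groups, comparison lists and thresholds were fixed in writing, and the members and lists were chosen with earlier results of these data known. Named genes were the members past 1.5-fold, the 2 highest and 2 lowest of each list by the mean of both arrays, and all members of lists with 6 or fewer genes. The values of the other members were added after they were seen. The counting code was tested on simulated data. Python 3.11.15, pandas 2.3.3, numpy 2.4.6 and matplotlib 3.10.9 were used.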

Additional observations from a re-analysis of the deposited data

Results flagged for a closer look

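KIF12 and KIF27 had opposite signs on the arrays and differed by at least 1.5-fold between them. For KIF12 the 6 h value was −0.34, the 3 h value was 0.61 and the difference −0.95. For KIF27 the 6 h value was −0.34, the 3 h value was 0.36 and the difference −0.70. With 1 array per time neither difference was tested, and each gene has 1 probe. Among all named genes with both values, 392 of 10469 (3.74%) met the same description, against 2 of 45 members (4.44%).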

How the results depend on the processing

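With genes given by the median of their probes, by the probe farthest from 0 or by the probe nearest to 0, with genes that had both values, with genes of 1 probe, with arrays centred on the named genes and with arrays scaled to a common SD, the counts past 1.5-fold over the members stayed within 1.5 times of those reported. The medians over the members and over the mitotic kinesins moved there by less than the probe SD divided by the square root of the number of genes. That margin takes genes as independent, which genes on 1 array need not be, and is no error of the medians. The counts depended on the fold. At 2-fold they were 2 at 6 h, 1 at 3 h and 0 for the difference, and at 1.3-fold 16, 15 and 5, in place of 8, 7 and 3. Read as natural logarithms, a setting chosen after seeing the data, the counts were 14, 14 and 5. The medians of all members were then 0.33 at 6 h and 0.15 at 3 h, and those of the mitotic kinesins 0.62 at 6 h and 0.33 for the difference. With the sign turned, the medians of all members were −0.23 at 6 h, −0.11 at 3 h and −0.05 for the difference, and those of the mitotic kinesins −0.43, −0.20 and −0.23, with every size as before. With symbols as listed, which left 8 mitotic kinesins, their medians were 0.27 at 6 h and 0.085 at 3 h, and the median difference over 33 members was 0.13. Without KIF18A and KIF20B, also chosen after seeing the data, the mitotic median at 6 h was 0.29 over 9 genes. The 6 h median of the axonemal dyneins was −0.23 with genes of 1 probe. DNAH14 at 3 h was 1.17 by its farther probe and 0.55 by its nearer one, which falls below the threshold. No paired analysis was possible because each time has 1 array.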

Other observations

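Motor genes whose symbols fall outside the stems above also had medians above 0. Of 10 listed genes 9 had values, with medians of 0.38 at 6 h and 0.29 at 3 h. Of these 9 genes, 8 were above 0 at 6 h and 7 at 3 h, against 51.5% and 51.3% of all named genes. KIFBP, a protein that holds kinesin motor domains off microtubules, had 0.80 at 6 h and 0.51 at 3 h. STARD9, a kinesin of mitotic centrosomes, had 0.54 at 6 h and 0.37 at 3 h. The lowest were the minus-end kinesins KIFC2, with −0.14 at 6 h and −0.11 at 3 h, and KIFC1, with 0.21 at 6 h and −0.06 at 3 h. CENPE, the kinetochore kinesin, had 0.56 at 6 h and 0.29 at 3 h and was chosen after its values were seen.

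Cargo adaptors of kinesin-1 did not share one side. Of 16 listed genes 10 had values, with medians of −0.04 at 6 h and 0.16 at 3 h. RHOT1, which ties motors to mitochondria, had 0.53 at 6 h and 0.18 at 3 h, and its relative RHOT2 had 0.16 at 6 h and 0.32 at 3 h. By the mean of both arrays the lowest were the JNK scaffold genes MAPK8IP1, at −0.05 at 6 h and −0.47 at 3 h, and MAPK8IP3, at −0.30 at 6 h and −0.22 at 3 h. SPAG9, another JNK scaffold, had 0.26 at 6 h and 0.17 at 3 h and was chosen after its values were seen. Of 21 listed tubulin genes 6 had values, with a median of 0.04 at 6 h and 0.01 at 3 h. They were the beta tubulins TUBB3 and TUBB6 and genes of the gamma, delta and epsilon tubulins. No alpha tubulin had a value, so these medians do not describe the microtubule track. Values ran from −0.36 to 0.57 at 6 h and from −0.16 to 0.54 at 3 h. The centriolar tubulin TUBD1 had 0.57 at 6 h and 0.54 at 3 h, and TUBE1 had 0.51 at 6 h and 0.30 at 3 h. The lowest were TUBB3, a neuronal beta tubulin, with −0.36 at 6 h and −0.16 at 3 h, and TUBB6 with −0.12 at 6 h and 0.04 at 3 h.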
